A study of Mus musculus with 6 samples.

Results

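Untreated Ba/F3 cells carrying ETV6-PDGFRB were compared directly with untreated Ba/F3 cells carrying FIP1L1-PDGFRA, with 1 Affymetrix mouse expression array for each, out of 6 arrays in all. The arrays were chosen by their labels, and no measured value entered the choice. Ba/F3 is a mouse blood cell line, labelled as pro-B, that dies without interleukin 3 (IL3) unless an active kinase takes its place. Both fusion genes sat in the pMSCV retroviral vector. Both lines had been selected for growth without IL3, were kept in DMEM with 10% serum and antibiotics, and were washed in PBS before 5 µg of RNA was labelled. Neither line of the untreated pair received imatinib. The same lines after 100 nM imatinib for 4 h gave another ETV6-PDGFRB and FIP1L1-PDGFRA pair that shares no array with the untreated one. Empty-vector cells kept in IL3, with and without the same imatinib dose, showed how far 2 arrays of 1 line differ when no fusion kinase is present. The labels do not say whether a line was a clone or a pool, and each line and treatment has 1 array. The fusion gene therefore cannot be told apart from other properties of the selected line, and no single untreated difference has a replicate check.

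ETV6-PDGFRB fuses part of the transcription factor ETV6 to the kinase domain of the beta receptor for platelet-derived growth factor, and FIP1L1-PDGFRA fuses part of the RNA processing factor FIP1L1 to the kinase domain of the alpha receptor. Both proteins are constantly active tyrosine kinases that are found in myeloid neoplasms with eosinophilia and are blocked by imatinib. Mast cells and basophils store serine proteases, carboxypeptidase A and histamine in granules. Interferons induce the IRG and GBP families of large GTPases, which attack the vacuoles of intracellular microbes, and a group of antiviral proteins that bind or modify viral RNA and block viral replication.

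Values are MAS5 signals, the intensity scale of the Affymetrix software, with each array scaled to a common mean. Each gene is represented by its brightest probe set of a single gene, and signals below a floor of 20.1 are treated as not measured. Log2 ratios are ETV6-PDGFRB over FIP1L1-PDGFRA, so a positive ratio means higher in ETV6-PDGFRB cells. Where 1 of the 2 arrays was below the floor the fold is a lower bound. A difference was counted when it reached 2-fold, with no test, since there was 1 array a side. The line difference was tested over both pairs in limma, with treatment as a block, and an adjusted p under 0.05 (Benjamini-Hochberg over 6712 genes) was the threshold. That test takes as its error the disagreement between the untreated and the imatinib pair, drawn toward a value pooled over all genes. The pooled part had 4.59 degrees of freedom and the gene's own part 1. Small SEs below therefore largely reflect the pool and not the precision of the single gene. The test does not measure spread between repeat cultures.

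The 2 fusion lines were much alike, and a small set of genes set them apart. Of 6780 genes measured, 59 (0.87%) had at least 2-fold more signal in untreated ETV6-PDGFRB cells and 51 (0.752%) at least 2-fold less, together 110 genes (1.62%). With imatinib the same lines differed past 2-fold at 45 higher (0.665%) and 41 lower (0.606%) of 6763 genes, together 86 (1.27%). In the IL3 vector pair, imatinib over untreated, 5 genes were higher (0.0749%) and 4 lower (0.0599%) of 6674. The SD of all log2 ratios was 0.353 in the untreated fusion pair, 0.341 in the imatinib pair and 0.195 in the vector pair. Log2 signals of the untreated fusion arrays correlated at r = 0.977 across genes, which are not independent replicates. The share of probe sets above the floor was 49.8% to 50.6% over the 6 arrays, a value set near 50% by the definition of the floor. The median ratio of the untreated pair was 0.04. When the arrays were scaled to their spiked hybridization controls instead, the median of all genes moved to -0.22 and the counts became 26 higher and 118 lower, with control means of 283 on the untreated ETV6-PDGFRB array and 236 on the untreated FIP1L1-PDGFRA array. By that scaling 18.1% of the differences were higher ones, against 53.6% in the main scaling. Directions below are therefore to be read against the median of all genes. At the limit, Nfkbie lay just inside 2-fold with a ratio of 1.01, and Ddb2 and Melk just outside with 0.99 each. On the lower side Cfap97 lay inside with -1.01, and Tnfrsf9 and Pgap2 outside with -0.98 each.

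Part of the difference was seen again in the pair with imatinib. There, 19 genes (0.288% of the 6588 measured in both pairs) were past 2-fold higher and 22 (0.334%) past 2-fold lower in both pairs, and 0 were past 2-fold in opposite directions. The shared genes made up 32.2% of the untreated and 42.2% of the imatinib genes that were higher, and 43.1% and 53.7% of those that were lower. Of the 59 genes higher in untreated ETV6-PDGFRB cells, 54 were measured in the imatinib pair and 51 of these had the same sign. Of the 51 lower genes, 46 were measured there and 37 had the same sign. Across all genes measured in both pairs the ratios correlated at r = 0.510 (Spearman rho = 0.424), as a description of genes on arrays from the same lines. The limma fit over both pairs called 23 genes higher (0.343%) and 22 lower (0.328%), together 45 (0.67%), with 1265 genes at an unadjusted p under 0.05. It called 38 of the 41 shared genes and 42 genes past 2-fold in the untreated pair, and the other 3 it called were F2rl2 as lower and Gimap4 and Mapk12 as higher. Cma1, Cpa3 and Acta2 were called under all 10 alternative settings, and F13a1 under all 9 that tested it. The number of calls depended strongly on the variance model and on how signals near the floor were handled, from 5 higher and 0 lower with a lower floor to 165 and 127 with a pseudocount, while all 45 genes kept their direction wherever all could be tested.

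**Figure D1:**
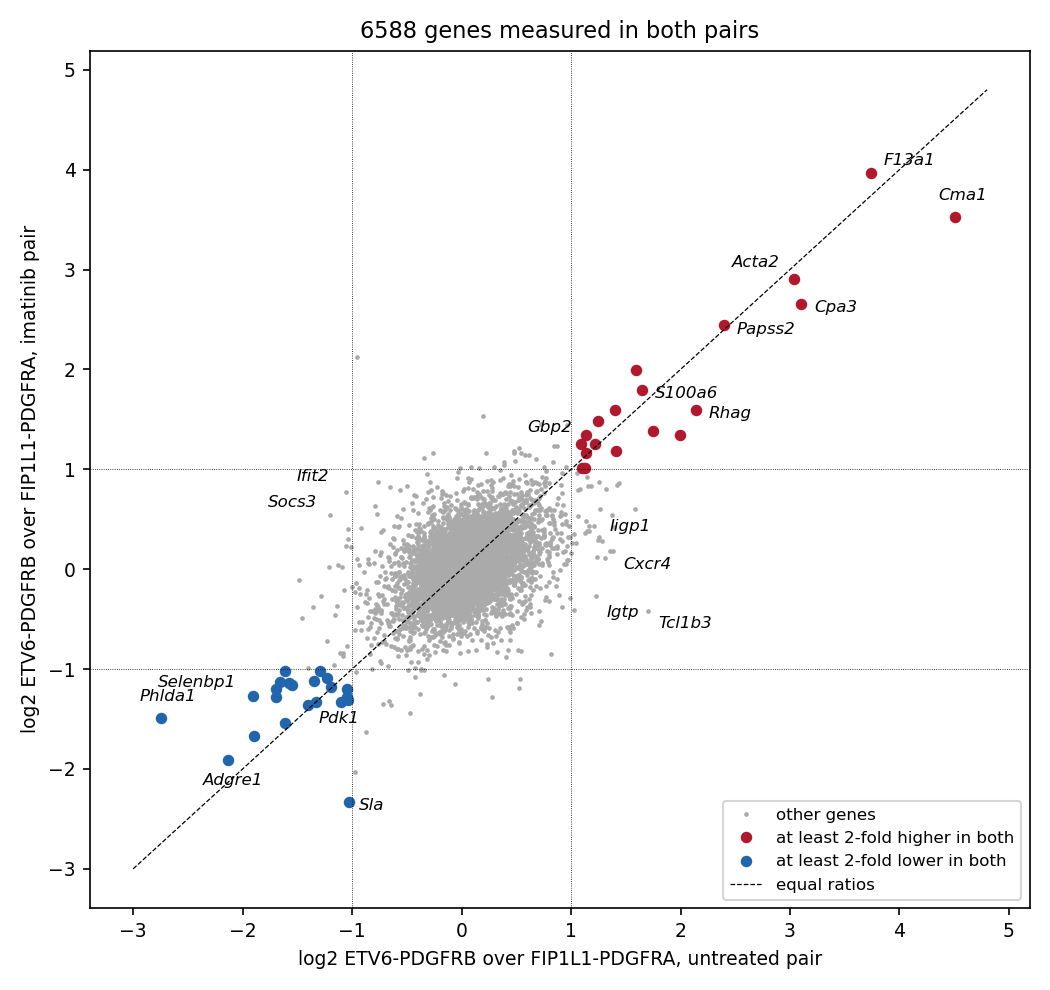
Log2 ratio of ETV6-PDGFRB over FIP1L1-PDGFRA in the untreated pair (horizontal) and the imatinib pair (vertical), 1 point per gene for 6588 genes, with ratios against a signal below the floor drawn at their bound. Dotted lines mark 2-fold. The 19 red genes are past 2-fold higher and the 22 blue ones past 2-fold lower in both pairs, led by Cma1, F13a1, Cpa3 and Acta2 at one end and by Phlda1 and Adgre1 at the other, while Tcl1b3, Igtp, Socs3 and Ifit2 have opposite signs in the pairs.

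With signals below the floor raised to it, the highest ratio was that of a mast cell granule protease, and other granule genes were higher in ETV6-PDGFRB cells with it. Cma1, the gene of mast cell chymase, gave a signal of 2574 in untreated ETV6-PDGFRB cells, against 113 in untreated FIP1L1-PDGFRA cells. With imatinib the signals were 3615 in ETV6-PDGFRB cells and 313 in FIP1L1-PDGFRA cells, and the IL3 vector cells gave 216. The ETV6-PDGFRB line was thus the high one of the 3 lines under both treatments. The untreated fold was 22.7, the imatinib fold 11.5, and the fitted log2 difference 4.02 ± 0.24 (SE, limma, adjusted p = 0.00705).

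Cpa3, the carboxypeptidase A of mast cell granules, followed with signals of 814 in untreated ETV6-PDGFRB cells and 94.7 in untreated FIP1L1-PDGFRA cells, against 166 in IL3 vector cells. The imatinib pair gave 1060 in ETV6-PDGFRB cells and 168 in FIP1L1-PDGFRA cells, and the fitted log2 difference was 2.88 ± 0.15 (SE, limma, adjusted p = 0.00459). Mcpt8, a serine protease of basophils, was measured in ETV6-PDGFRB cells alone, at 60.7 untreated and 79.8 with imatinib, while FIP1L1-PDGFRA cells gave 4.95 untreated and 8.74 with imatinib and vector cells 16.8. It was at least 3.02-fold higher untreated (limma, adjusted p = 0.0195). Hdc, whose product makes histamine, was 2.68-fold higher untreated at 64.9 in ETV6-PDGFRB cells and 24.2 in FIP1L1-PDGFRA cells, but its fitted difference missed the threshold (limma, adjusted p = 0.0683). Mcpt4, another mast cell chymase, gave 33.2 in ETV6-PDGFRB cells and 1.41 in FIP1L1-PDGFRA cells, at least 1.65-fold apart.

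Of 22 mast cell, basophil and eosinophil markers with a probe set, 10 were measured in the untreated pair. Of these, 4 were past 2-fold higher and 0 lower, where 0.87% of all genes were higher, with a median log2 ratio of 0.71 beside 0.04 for all genes, and the line fit called 3 higher. Besides Mcpt4, the other measured members lay between the transcription factor Gata2 at 0.69 and the granule proteoglycan Srgn at -0.06, and Mitf, a transcription factor of mast cells, was level at 0.01. The remaining 12 were below the floor on both untreated arrays, among them the receptor genes Kit, Fcer1a and Ms4a2, the tryptases Tpsab1 and Tpsb2, and the eosinophil granule genes Epx and Prg2. The summed signal of the list was 7741 in untreated ETV6-PDGFRB cells and 3955 in untreated FIP1L1-PDGFRA cells, with 4653 in untreated vector cells. In bulk RNA, more cells of a type and more RNA per cell cannot be told apart.

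Several genes outside that list stood apart in the same lasting way. F13a1, the catalytic subunit of coagulation factor XIII, gave 268 untreated and 314 with imatinib in ETV6-PDGFRB cells, against 4.73 untreated and 8.27 with imatinib in FIP1L1-PDGFRA cells. It was at least 13.3-fold higher untreated (limma, adjusted p = 0.00147), and the vector cells were also below the floor at 6.48. Both FIP1L1-PDGFRA arrays entered that fit at the floor, so its error leaves out any difference between them. Acta2, the actin of smooth muscle, gave 462 in untreated ETV6-PDGFRB cells and 56.2 in untreated FIP1L1-PDGFRA cells, an 8.22-fold difference, and 298 in ETV6-PDGFRB cells and 39.8 in FIP1L1-PDGFRA cells with imatinib (2.97 ± 0.12 log2, SE, limma, adjusted p = 0.00236). Of the other actin and SRF-linked genes none reached 2-fold, and the median of the 27 measured was 0.12. Among 18 fibroblast and endothelial markers, which also hold Acta2, 15 were below the floor on both untreated arrays.

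Papss2, which makes the sulfate donor of sulfotransferases, was at least 5.27-fold higher, with 106 in untreated ETV6-PDGFRB cells and 12.6 in untreated FIP1L1-PDGFRA cells (limma, adjusted p = 0.00424). S100a6, a calcium-binding protein, gave 535 in ETV6-PDGFRB cells and 171 in FIP1L1-PDGFRA cells untreated, and 796 in ETV6-PDGFRB cells and 229 in FIP1L1-PDGFRA cells with imatinib (1.72 ± 0.12 log2, SE, limma, adjusted p = 0.0129). Here the vector cells, at 323, lay between the fusion lines. Rhag, the Rh-associated glycoprotein of the red cell membrane, gave 132 in ETV6-PDGFRB cells and 29.8 in FIP1L1-PDGFRA cells untreated (limma, adjusted p = 0.0235). Ramp1, a subunit of the receptor for calcitonin gene-related peptide, gave 182 in ETV6-PDGFRB cells and 54.0 in FIP1L1-PDGFRA cells untreated and passed the test as well (limma, adjusted p = 0.0236). Serpini1, Anxa1, Plin3 and Pink1 also passed, with untreated folds of 2.64 as a lower bound, 2.32, 2.37 and 2.20. The signal of Pink1 also differed 2.01-fold between the vector arrays, at 24.6 with imatinib and 49.5 without. For Rbmx, 98.5 in ETV6-PDGFRB cells and 24.7 in FIP1L1-PDGFRA cells on its brightest probe set, another probe set gave a ratio of -0.17, and its call rests on the first one.

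**Figure D2:**
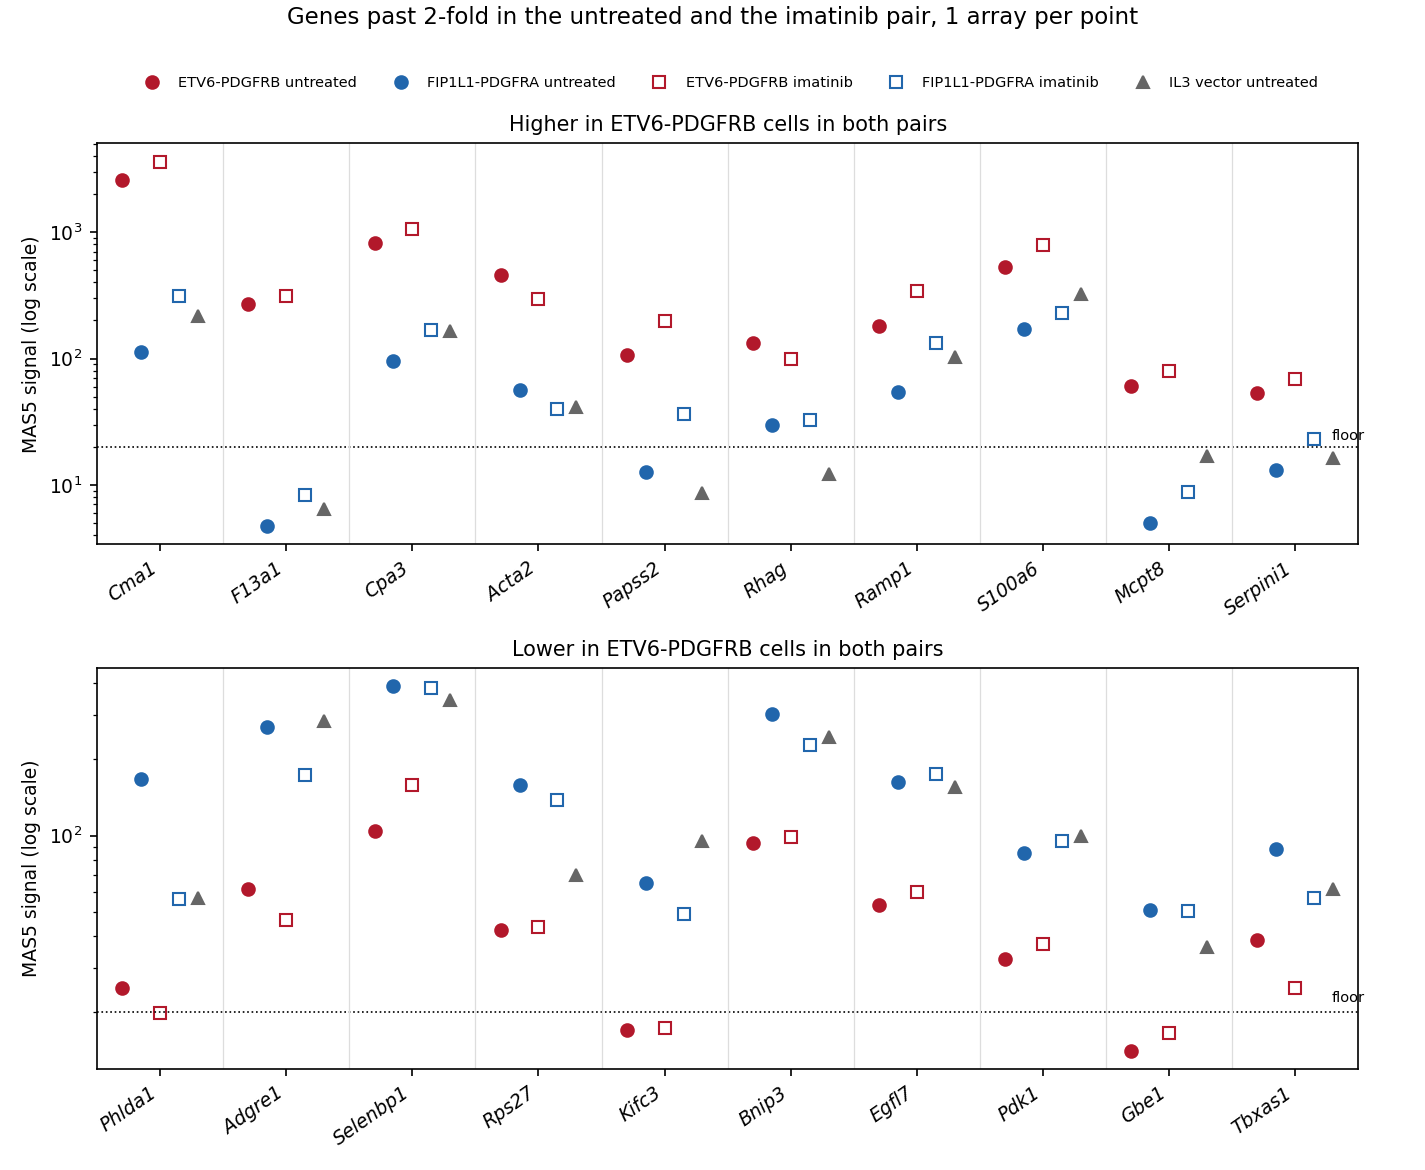
MAS5 signal on a log scale of the 10 genes in each direction with the largest difference shared by both pairs, each point 1 array, for ETV6-PDGFRB and FIP1L1-PDGFRA cells untreated (filled circles) and with imatinib (open squares) and for untreated IL3 vector cells (triangles). The dotted line is the floor. In the upper panel both ETV6-PDGFRB arrays lie above both FIP1L1-PDGFRA arrays, as for Cma1 with 2574 and 3615 for ETV6-PDGFRB over 113 and 313 for FIP1L1-PDGFRA, and in the lower panel both lie below, as for Adgre1 with 61.4 and 46.2 for ETV6-PDGFRB under 270 and 174 for FIP1L1-PDGFRA.

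Among genes lower in ETV6-PDGFRB cells, a macrophage surface gene and 2 genes of the glycolysis and hypoxia list passed the test. Adgre1, the F4/80 antigen of macrophages, gave 61.4 in untreated ETV6-PDGFRB cells and 270 in untreated FIP1L1-PDGFRA cells, a 4.39-fold difference, and the vector cells gave 284. With imatinib the signals were 46.2 in ETV6-PDGFRB cells and 174 in FIP1L1-PDGFRA cells (-2.02 ± 0.13 log2, SE, limma, adjusted p = 0.00846). All 6 measured myeloid markers had ratios below 0, where 56.7% of all genes were above 0, and all 6 lay below the median of all genes. Their median was -0.38, but Adgre1 was the 1 past 2-fold. With imatinib 3 of 7 measured were above 0, with a median of -0.56, where 54.4% of all genes were above 0. In the untreated pair 18 of the 24 with a probe set, Itgam, Cd14 and Mpo among them, were below the floor on both arrays. The summed signal of the list was 1167 in untreated ETV6-PDGFRB and 1712 in untreated FIP1L1-PDGFRA cells. The part of the mast cell or myeloid markers in the other differences was not tested.

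Bnip3, a mitochondrial protein of mitophagy induced by hypoxia, gave 93.5 in untreated ETV6-PDGFRB cells and 303 in untreated FIP1L1-PDGFRA cells, with 246 in vector cells. Its fitted log2 difference was -1.45 ± 0.16 (SE, limma, adjusted p = 0.0328). Pdk1, the kinase that shuts off pyruvate dehydrogenase, gave 32.4 in ETV6-PDGFRB cells and 85.5 in FIP1L1-PDGFRA cells untreated, and 37.2 in ETV6-PDGFRB cells and 95.3 in FIP1L1-PDGFRA cells with imatinib (-1.38 ± 0.12 log2, SE, limma, adjusted p = 0.0231). Another probe set of Pdk1 was under 2-fold untreated, with a log2 ratio of -0.59, and gave -1.14 with imatinib. Of 24 glycolysis and hypoxia response genes measured, Bnip3 and Pdk1 (8.33%) were past 2-fold lower, where 0.752% of all genes were, and 0 were higher. The list's median was -0.25 beside 0.04 for all genes, and 18 of the 24 lay below the median of all genes. The line fit called the same 2 lower.

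Under 2-fold, the glucose transporter Slc2a3 gave 636 in untreated ETV6-PDGFRB and 1080 in untreated FIP1L1-PDGFRA cells, and the glycolytic enzyme Pgam1 gave 808 in ETV6-PDGFRB cells and 1349 in FIP1L1-PDGFRA cells. The values of both were lower in the imatinib pair too, at log2 ratios of -0.75 for Slc2a3 and -0.94 for Pgam1, but neither passed the test (limma, adjusted p = 0.0773 for Slc2a3 and 0.0683 for Pgam1). In the other direction Hk2, a hexokinase, and Ndrg1 had untreated ratios of 0.34 and 0.37. Hif1a itself was level, at 352 in untreated ETV6-PDGFRB cells and 351 in untreated FIP1L1-PDGFRA cells. Outside the list, Fam162a, a mitochondrial gene induced by hypoxia, gave 776 in ETV6-PDGFRB cells and 1598 in FIP1L1-PDGFRA cells (limma, adjusted p = 0.0328). Higd1a, another mitochondrial hypoxia gene, gave 576 in ETV6-PDGFRB cells and 1218 in FIP1L1-PDGFRA cells and missed the threshold (limma, adjusted p = 0.0554). A weaker probe set of Higd1a differed by -0.04 in the untreated pair.

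Other genes passed the test as lower in ETV6-PDGFRB cells. Selenbp1, a selenium-binding enzyme that oxidises methanethiol, gave 104 in untreated ETV6-PDGFRB cells and 389 in untreated FIP1L1-PDGFRA cells (limma, adjusted p = 0.0333), and a further probe set gave 107 in ETV6-PDGFRB cells and 384 in FIP1L1-PDGFRA cells. Egfl7, a secreted factor of blood vessels, gave 53.2 in ETV6-PDGFRB cells and 163 in FIP1L1-PDGFRA cells (limma, adjusted p = 0.0154). Its other measured probe sets were under 2-fold, with untreated log2 ratios of -0.68 and -0.98. Ltb, the beta chain of the lymphotoxin complex, gave 44.7 in ETV6-PDGFRB cells and 131 in FIP1L1-PDGFRA cells (limma, adjusted p = 0.0308). Gbe1, the glycogen branching enzyme, was at least 2.52-fold lower at 14.1 in ETV6-PDGFRB cells and 50.6 in FIP1L1-PDGFRA cells (limma, adjusted p = 0.0235). The lysosomal proteases Lgmn and Ctss and the thromboxane synthase Tbxas1 were also called, with untreated folds of 2.06, 2.05 and 2.29. Rps27 was called lower at 42.4 in ETV6-PDGFRB cells and 158 in FIP1L1-PDGFRA cells (limma, adjusted p = 0.0129), but its signal also differed between the vector arrays, at 159 with imatinib and 69.7 without.

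Phlda1, which many growth factors induce through ERK, had the lowest ratio in the untreated pair with signals below the floor raised to it. It gave 24.9 in untreated ETV6-PDGFRB cells and 167 in untreated FIP1L1-PDGFRA cells, a 6.72-fold difference. With imatinib it was below the floor at 19.9 in ETV6-PDGFRB cells and at 56.2 in FIP1L1-PDGFRA cells, at least 2.80-fold apart (limma, adjusted p = 0.0566, above the 0.05 threshold). No other member of the ERK feedback and immediate early list reached 2-fold, and the median of its 28 measured members was -0.13.

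Interferon-stimulated genes did not move as 1 group between the lines. Of 43 measured, 5 were past 2-fold higher and 3 past 2-fold lower in untreated ETV6-PDGFRB cells, or 18.6% beside 1.62% of all genes, and the list's median was -0.14. Split by role after the values were seen, the GTPases lay higher and the antiviral genes mostly lower. All 10 measured IRG and GBP genes had ratios above 0, from 0.32 to 1.32 with a median of 0.81, and 4 were past 2-fold, where 0.87% of all genes were higher. Of 18 antiviral effectors and sensors, 16 had ratios below 0, with a median of -0.46, and 3 were past 2-fold lower, where 0.752% of all genes were. Of all genes measured, 56.7% had ratios above 0. Against the median of all genes the counts were the same, with 10 GTPases above it and 16 antiviral genes below. These counts on each side of 0 stayed the same when the arrays were scaled to the hybridization controls, but 1 GTPase in place of 4 was then past 2-fold. Since the split followed the values, it is a description only.

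Promoter sequence is shown for a pair of genes from each side, since letters of the interferon-stimulated response element (ISRE) occur on both sides. The 250 bases before the transcription start are given 5′ to 3′ on the gene's strand, from RefSeq on GRCm38.p6. Gbp2 lies at chr3:142620413-142620662 on the plus strand and Igtp at chr11:58199306-58199555 on the plus strand. Rsad2 lies at chr12:26456453-26456702 on the minus strand and Ifit3 at chr19:34583279-34583528 on the plus strand. Both strands were searched. Capitals mark the ISRE letters, GAAA and GAAA with any 2 bases between, on either strand. In Igtp they also mark the GAS letters TTCNNNGAA next to it, which do not overlap the ISRE.
Gbp2: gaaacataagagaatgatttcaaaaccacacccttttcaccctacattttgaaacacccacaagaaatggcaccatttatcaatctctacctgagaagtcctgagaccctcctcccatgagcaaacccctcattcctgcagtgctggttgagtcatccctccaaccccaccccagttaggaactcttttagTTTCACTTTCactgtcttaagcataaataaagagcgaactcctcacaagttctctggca
Igtp: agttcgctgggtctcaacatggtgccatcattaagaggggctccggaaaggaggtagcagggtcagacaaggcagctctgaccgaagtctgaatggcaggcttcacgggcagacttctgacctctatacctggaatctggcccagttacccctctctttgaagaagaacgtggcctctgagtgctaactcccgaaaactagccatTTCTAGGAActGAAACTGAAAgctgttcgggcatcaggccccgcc
Rsad2: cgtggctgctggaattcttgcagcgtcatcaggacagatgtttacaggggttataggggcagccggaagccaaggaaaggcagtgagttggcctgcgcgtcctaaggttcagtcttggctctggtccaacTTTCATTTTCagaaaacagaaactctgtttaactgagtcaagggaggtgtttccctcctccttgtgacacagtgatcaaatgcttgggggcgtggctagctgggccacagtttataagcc
Ifit3: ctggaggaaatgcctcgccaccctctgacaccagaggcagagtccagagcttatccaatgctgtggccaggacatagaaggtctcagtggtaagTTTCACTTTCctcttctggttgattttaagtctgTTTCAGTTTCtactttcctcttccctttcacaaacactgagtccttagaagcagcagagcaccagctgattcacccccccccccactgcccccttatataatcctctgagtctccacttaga
In windows from 250 bases before to 50 after the start, the ISRE letters were in 7 of 9 promoters of the IRG and GBP genes (8 of the 10 genes matched) and in 7 of 15 promoters of the antiviral genes (12 of the 20 genes matched). They were in 3.44% of all 32851 promoters in the RefSeq table. The GAS letters were in 3 of 9 and 5 of 15, against 8.30% of all promoters. Both motifs were thus present on both sides of the split, and a match of letters is no binding site by itself.

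The GTPase signals were large in both fusion lines. Gbp2b gave 2078 in untreated ETV6-PDGFRB cells and 832 in untreated FIP1L1-PDGFRA cells, Igtp gave 2015 in ETV6-PDGFRB cells and 861 in FIP1L1-PDGFRA cells, and Iigp1 gave 1476 in ETV6-PDGFRB cells and 617 in FIP1L1-PDGFRA cells. Of the 10 genes, 6 were below the floor in untreated vector cells, Gbp2b at 5.58 and Iigp1 at 11.3. Gbp2, a close relative of Gbp2b whose probes could share transcripts with it, gave 1319 in ETV6-PDGFRB cells and 618 in FIP1L1-PDGFRA cells. With imatinib its signals were 235 in ETV6-PDGFRB cells and 98.8 in FIP1L1-PDGFRA cells, and it was the 1 gene of the group that passed the test (1.17 ± 0.12 log2, SE, limma, adjusted p = 0.0308).

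The smaller differences ran the same way in the untreated pair. Ifi47, an IRG protein, gave 1303 in untreated ETV6-PDGFRB cells and 771 in untreated FIP1L1-PDGFRA cells, and Gbp7 gave 1447 in ETV6-PDGFRB cells and 906 in FIP1L1-PDGFRA cells. Irgm1, a regulatory IRG protein, gave 760 in ETV6-PDGFRB cells and 607 in FIP1L1-PDGFRA cells. With imatinib the group's 9 measured members had a median ratio of 0.40, and 2 had the opposite sign. Igtp then gave 112 in ETV6-PDGFRB cells, against 135 in FIP1L1-PDGFRA cells, and Irgm2 gave 39.3 in ETV6-PDGFRB cells and 53.8 in FIP1L1-PDGFRA cells.

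Rsad2, the gene of the antiviral enzyme viperin, stood at the other end. It gave 50.3 in untreated ETV6-PDGFRB cells and 252 in untreated FIP1L1-PDGFRA cells, a 5.01-fold difference. Its 2 other probe sets gave log2 ratios of -1.95 and -2.07. Both lines were below the floor with imatinib, so the difference was seen in the untreated pair alone. Ifit3 and Ifit2, which bind viral RNA or its complexes, differed too. Ifit3 gave 64.8 in untreated ETV6-PDGFRB cells and 135 in untreated FIP1L1-PDGFRA cells, and Ifit2 gave 104 in ETV6-PDGFRB cells and 216 in FIP1L1-PDGFRA cells. With imatinib Ifit3 was below the floor in both lines. Ifit2 then ran the other way, at 84.2 in ETV6-PDGFRB cells and 49.1 in FIP1L1-PDGFRA cells.

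The other antiviral genes differed by less. Usp18, which removes ISG15 from proteins, gave 277 in untreated ETV6-PDGFRB and 433 in untreated FIP1L1-PDGFRA cells, and Isg20, an RNA exonuclease, gave 374 in ETV6-PDGFRB cells and 549 in FIP1L1-PDGFRA cells. The kinase Eif2ak2, which halts translation on double-stranded RNA, gave 180 in ETV6-PDGFRB cells and 281 in FIP1L1-PDGFRA cells. The OAS genes, whose products activate RNase L, lay between -0.38 for Oas1a and -0.15 for Oasl2. The exceptions were Zbp1, a nucleic acid sensor, at 389 in ETV6-PDGFRB against 258 in FIP1L1-PDGFRA cells, and Rtp4 at 732 in ETV6-PDGFRB cells and 532 in FIP1L1-PDGFRA cells. With imatinib 14 members were measured, with a median of -0.45, and the line fit called 0 of the 18 tested in either direction.

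Among interferon genes outside both groups, the transcription factor Irf1 gave 403 in untreated ETV6-PDGFRB cells and 175 in untreated FIP1L1-PDGFRA cells, a 2.31-fold difference. The fold was 1.35 with imatinib, at 105 in ETV6-PDGFRB cells and 77.7 in FIP1L1-PDGFRA cells. Batf2, which works with Irf1 in macrophages, gave 172 in ETV6-PDGFRB cells and 73.1 in FIP1L1-PDGFRA cells untreated and was below the floor in both lines with imatinib. Ifi27l2a ran the other way at 114 in ETV6-PDGFRB against 339 in FIP1L1-PDGFRA cells, and its difference lasted with imatinib at 180 in ETV6-PDGFRB cells and 395 in FIP1L1-PDGFRA cells (limma, adjusted p = 0.0328). The 15 measured MHC class I and immunoproteasome genes held 0 past 2-fold, with a median of 0.29 and ratios from -0.31 for H2-K1 to 0.60 for Tap2.

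**Figure D3:**
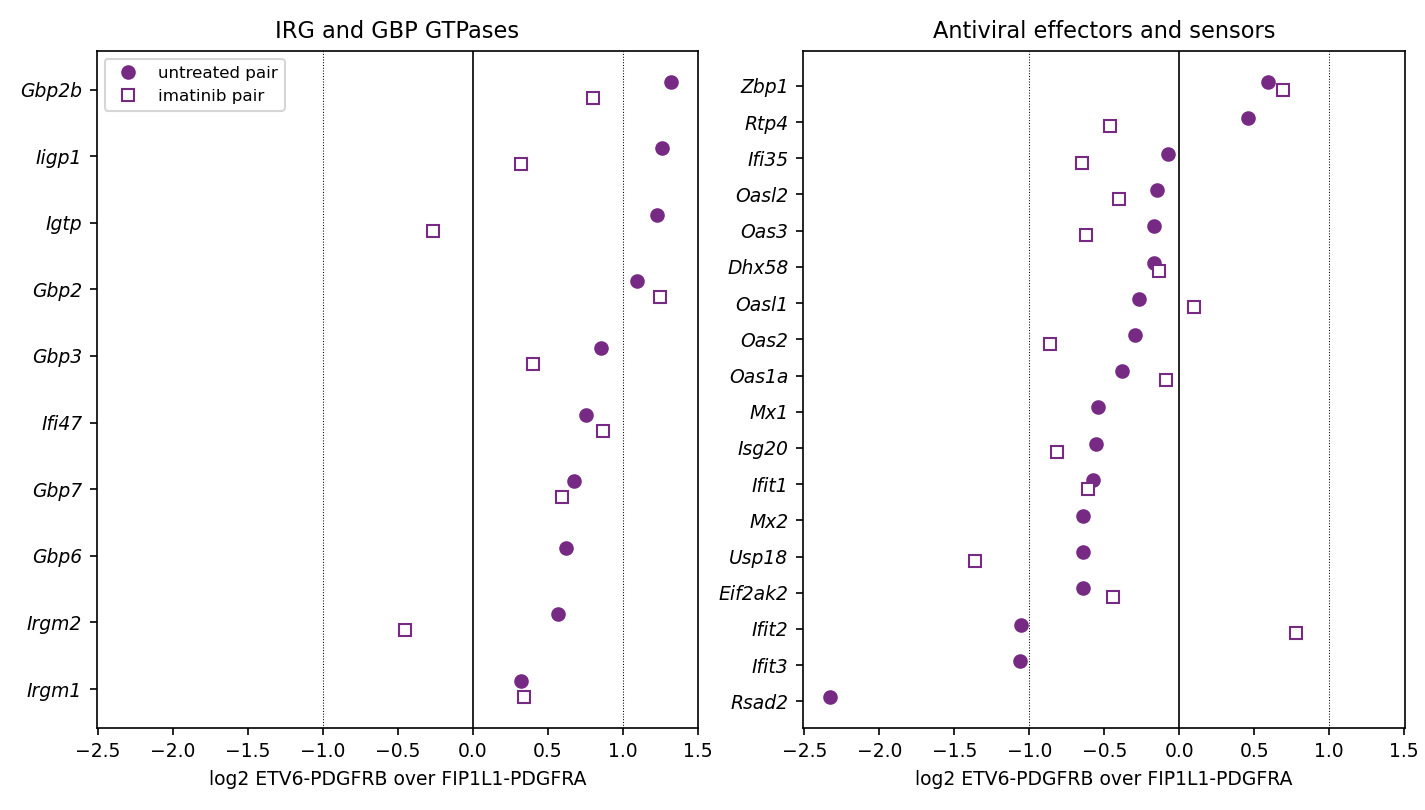
Log2 ratio of ETV6-PDGFRB over FIP1L1-PDGFRA for each measured IRG and GBP gene (left) and each measured antiviral gene (right), in the untreated pair (filled circles) and the imatinib pair (open squares, absent where both arrays were below the floor). The 10 GTPases lie at 0.32 to 1.32 untreated, and 16 of the 18 antiviral genes lie below 0, down to -2.33 for Rsad2. Of all genes, 56.7% lie above 0 in the untreated pair.

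A further set of genes was past 2-fold in the untreated pair and close to level, or opposite, with imatinib. The imatinib ratio was opposite or nearly level for 13 of the 54 higher genes measured in the imatinib pair and for 13 of the 46 lower ones. The same count was not made over all genes. These genes were picked for a large untreated ratio, and the change of their difference with imatinib was not tested. Tcl1b3, of the TCL1 family of AKT-binding proteins, gave 464 in untreated ETV6-PDGFRB cells and 143 in untreated FIP1L1-PDGFRA cells, and with imatinib 160 in ETV6-PDGFRB cells and 214 in FIP1L1-PDGFRA cells. Its probe set, of a kind that can bind related transcripts, may count other family members. Cxcr4, the CXCL12 receptor, gave 360 in ETV6-PDGFRB cells and 138 in FIP1L1-PDGFRA cells untreated. With imatinib it gave 826 in ETV6-PDGFRB cells, against 725 in FIP1L1-PDGFRA cells.

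Klf1, the transcription factor of red cell genes, gave 313 in untreated ETV6-PDGFRB cells and 132 in untreated FIP1L1-PDGFRA cells, and with imatinib 943 in ETV6-PDGFRB cells and 770 in FIP1L1-PDGFRA cells. Lmo4, a LIM-domain cofactor, gave 229 in ETV6-PDGFRB cells and 93.9 in FIP1L1-PDGFRA cells untreated, and 410 in ETV6-PDGFRB cells and 336 in FIP1L1-PDGFRA cells with imatinib. In Klf1, Lmo4 and Cxcr4 alike, both imatinib signals exceeded both untreated ones. Lmo2, a LIM-domain cofactor of erythroid complexes, kept more of its difference, with 186 in ETV6-PDGFRB cells and 87.5 in FIP1L1-PDGFRA cells untreated, and 163 in ETV6-PDGFRB cells and 93.7 in FIP1L1-PDGFRA cells with imatinib, but missed the threshold (limma, adjusted p = 0.0602). Of 16 erythroid and megakaryocyte markers measured, Klf1 and Lmo2 were past 2-fold higher and 0 lower, or 12.5% where 0.87% of all genes were higher, with a median of 0.14, and Gata1 and Tal1 had ratios of 0.33 and 0.13. The globin gene Hba-a1 was below the floor on both untreated arrays.

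On the lower side, several genes of STAT and cytokine feedback were past 2-fold in the untreated pair alone. Socs3, an inhibitor of JAK kinases, gave 32.6 in untreated ETV6-PDGFRB cells and 74.9 in untreated FIP1L1-PDGFRA cells, a 2.30-fold difference. With imatinib it gave 29.3 in ETV6-PDGFRB cells and was below the floor in FIP1L1-PDGFRA cells at 16.9. Its signal was low, and its 2 other probe sets gave ratios of -0.24 and -1.33. Id2, an inhibitor of helix-loop-helix factors, gave 62.6 in ETV6-PDGFRB cells and 129 in FIP1L1-PDGFRA cells untreated, and 72.3 in ETV6-PDGFRB cells and 54.8 in FIP1L1-PDGFRA cells with imatinib. Another probe set of Id2 gave an untreated ratio of -0.43. Il2ra, the alpha chain of the IL2 receptor, was at least 2.23-fold lower, at 3.81 in ETV6-PDGFRB cells and 44.8 in FIP1L1-PDGFRA cells, and another probe set gave 2.10 in ETV6-PDGFRB cells and 84.1 in FIP1L1-PDGFRA cells. Both lines were below the floor for Il2ra with imatinib.

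Cish, a STAT5-induced inhibitor, lay just under 2-fold at 284 in untreated ETV6-PDGFRB cells and 552 in untreated FIP1L1-PDGFRA cells, with 309 in vector cells. Other members of the STAT5 list lay on both sides of 0. Il4ra, a chain of the IL4 receptor, and Pim2, a kinase, had ratios of -0.45 and -0.19. Socs1 gave 213 in ETV6-PDGFRB cells and 207 in FIP1L1-PDGFRA cells, Ccnd2 gave 788 in ETV6-PDGFRB cells and 765 in FIP1L1-PDGFRA cells, and the kinase gene Pim1 gave 356 in ETV6-PDGFRB cells and 280 in FIP1L1-PDGFRA cells. The list of 19 measured STAT5 and feedback genes held 3 past 2-fold lower and 0 higher, or 15.8% where 0.752% of all genes were lower. Its median was -0.02 with 10 members below 0 and 13 below the median of all genes, and the line fit called 0 of 18. The count of lower genes changed with the setting. It was 1 of 18 with the floor at the 60th percentile and 1 of 19 with a pseudocount of 20. With the floor at the 40th percentile it was 3 of 21, and with hybridization control scaling 4 of 20. Bhlhe40, a helix-loop-helix repressor, gave 132 in ETV6-PDGFRB cells and 320 in FIP1L1-PDGFRA cells untreated, and 100.0 in ETV6-PDGFRB cells and 120 in FIP1L1-PDGFRA cells with imatinib.

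**Figure D4:**
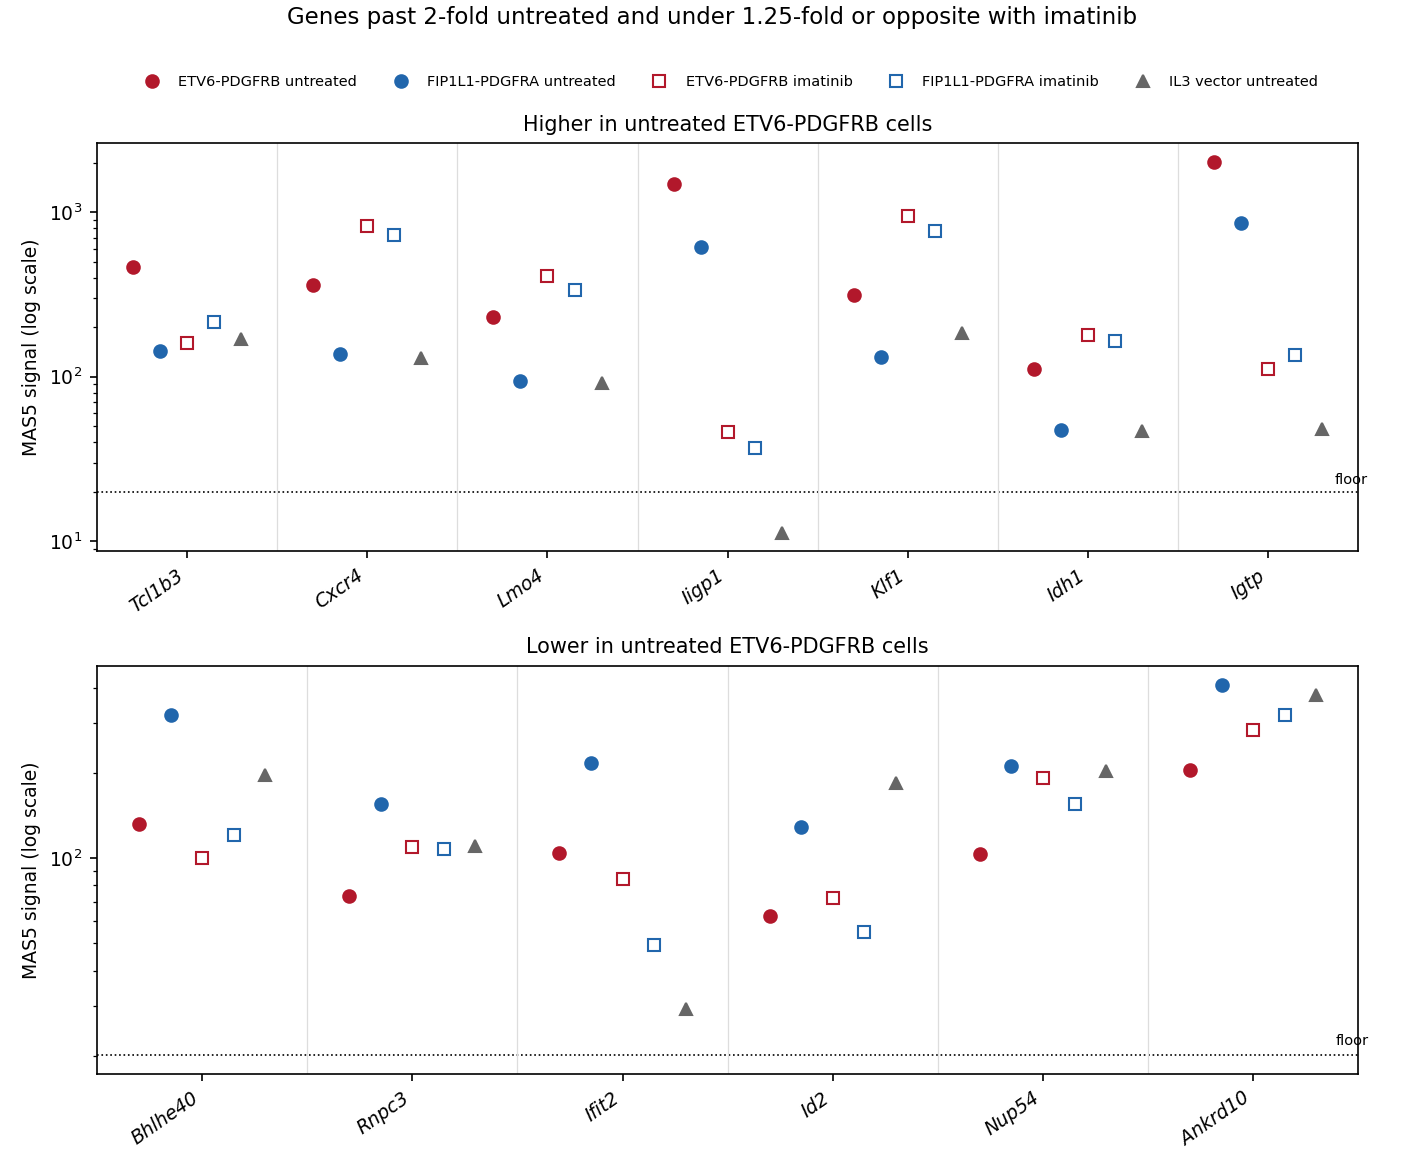
MAS5 signal on a log scale of genes past 2-fold in the untreated pair and opposite or nearly level in the imatinib pair, with symbols as in the plot of shared genes. Circles of the 2 fusion lines are apart and squares close together or crossed, as for Igtp with 2015 in ETV6-PDGFRB cells and 861 in FIP1L1-PDGFRA cells untreated, and 112 in ETV6-PDGFRB cells and 135 in FIP1L1-PDGFRA cells with imatinib. Iigp1 and Igtp are lower with imatinib in both lines, while Cxcr4, Klf1 and Lmo4 are higher.

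Over all 27 lists, 15 of 504 measured genes were past 2-fold higher and 11 lower, together 5.16% beside 1.62% of all genes. The lists were chosen with earlier results of these data known, so these shares are a description only. Outside the mast cell, myeloid, interferon, glycolysis, STAT5 and erythroid lists, set aside after their values were seen, 6 of 388 (1.55%) were past 2-fold. These were Acta2, Cxcr4, Nfkbie and Sesn2 as higher and Phlda1 and Ltb as lower. Another probe set of Sesn2 gave an untreated ratio of -0.04. The MYC and ribosome biogenesis list (55 measured), the E2F and G1/S list (35), the G2/M list (34) and the sterol and fatty acid list (31) held 0 genes past 2-fold in either direction, with medians of -0.07, 0.01, 0.24 and 0.24. In the G2/M list 28 members and in the sterol list 27 lay above the median of all genes, and with hybridization control scaling both list medians were -0.02 beside -0.22 for all genes. Mad2l1, a spindle checkpoint protein, gave 492 in ETV6-PDGFRB cells, against 352 in FIP1L1-PDGFRA cells, and Idi1, an enzyme of the mevalonate pathway, gave 745 in ETV6-PDGFRB cells and 456 in FIP1L1-PDGFRA cells. The 26 measured cytokine receptor and JAK-STAT genes also held 0 past 2-fold, with Epor and Ifngr1 the highest at 0.97 and 0.96. Gzmb, the granzyme of cytotoxic lymphocytes, was the brightest of 4 measured T and NK markers, at 3793 in ETV6-PDGFRB cells and 2072 in FIP1L1-PDGFRA cells (limma, adjusted p = 0.0554), while Cd3e, Prf1 and Gzma were below the floor on both arrays.

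The untreated IL3 vector array gave a reference for which line departed. Of the 59 higher genes, the vector signal was nearer to FIP1L1-PDGFRA for 48 and nearer to ETV6-PDGFRB for 11. Of the 51 lower genes, it was nearer to FIP1L1-PDGFRA for 32 and to ETV6-PDGFRB for 19. The vector signal lay below both fusion signals for 16 of the 59 higher genes. Among the 51 lower genes it lay above both for 9 and below both for 10. For such genes both fusion lines differed from the vector line in the same direction, and the nearer line is not evidence of which line departed. The same counts were not made over all measured genes. Vector cells differed from both fusion lines in having IL3, so these counts do not separate IL3 from the fusion genes.

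**Figure D5:**
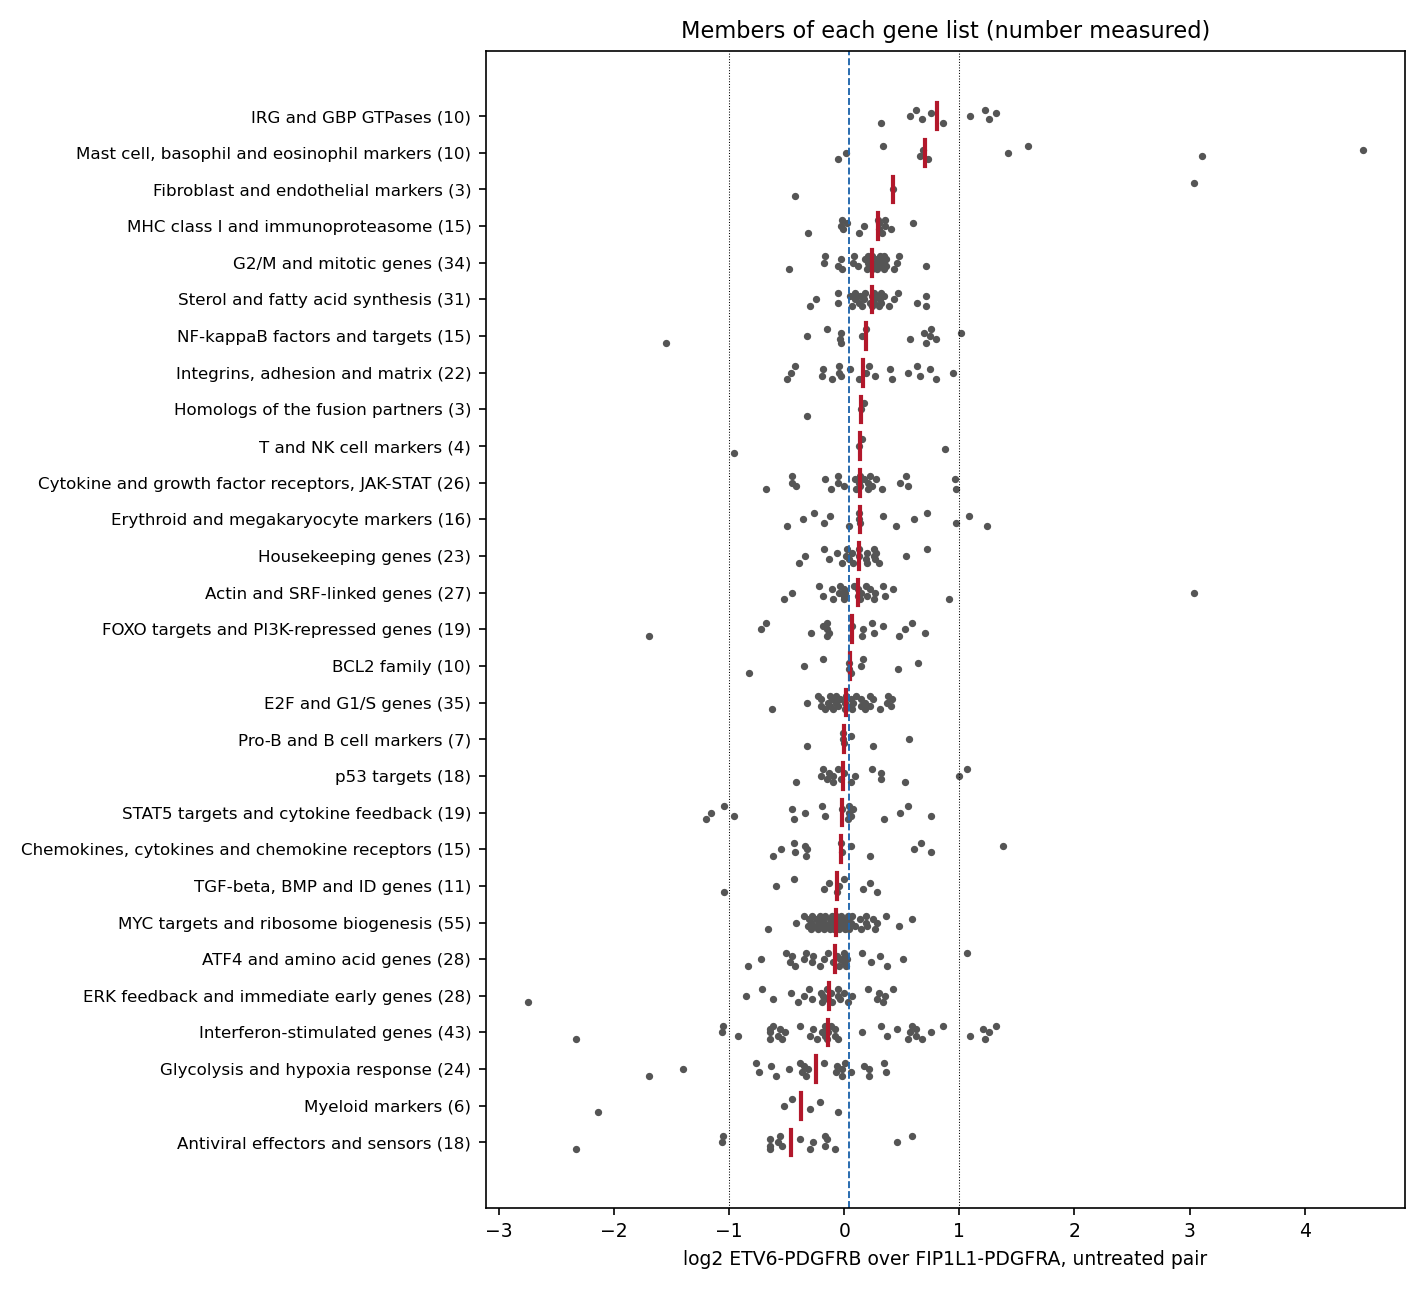
Log2 ratio of ETV6-PDGFRB over FIP1L1-PDGFRA in the untreated pair for each measured member of each gene list (dots), with the list median (red bar), the median of all genes at 0.04 (dashed line) and 2-fold (dotted lines). The IRG and GBP genes and the mast cell markers have the highest medians, 0.81 and 0.71, and the antiviral genes and myeloid markers the lowest, -0.46 and -0.38, while the MYC and the E2F lists lie at -0.07 and 0.01. The IRG and GBP and the antiviral groups were split from the interferon list, whose median is -0.14, after the values were seen. Their places at the 2 ends are therefore a description only.

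The labelled cell type and the fusion partners were checked on the same arrays. Of 27 pro-B and B cell markers with a probe set, 7 were measured and 0 differed past 2-fold. Cd79a gave 42.6 in ETV6-PDGFRB cells, against 42.8 in FIP1L1-PDGFRA cells, and Btk gave 357 in ETV6-PDGFRB cells and 446 in FIP1L1-PDGFRA cells. Pax5, Ebf1, Rag1, Rag2, Vpreb1, Igll1 and Il7r were below the floor on both arrays, so the defining markers of pro-B cells were not measured in either line. The mouse probe sets of Pdgfra were below the floor, at 4.10 in ETV6-PDGFRB cells, against 10.9 in FIP1L1-PDGFRA cells, and so were those of Pdgfrb, at 0.14 in ETV6-PDGFRB cells and 2.34 in FIP1L1-PDGFRA cells. Etv6 gave 46.9 in ETV6-PDGFRB cells, against 58.5 in FIP1L1-PDGFRA cells, and Fip1l1 gave 138 in ETV6-PDGFRB cells and 123 in FIP1L1-PDGFRA cells. The annotation names no probe set for either fusion transcript, so the levels of the 2 fusions were not compared here. Of the 110 genes past 2-fold, 33 had further measured probe sets. Of these 46 probe sets, 39 had the same sign and 16 were past 2-fold in the same direction.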

How the data were processed

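RNA of 6 Ba/F3 cultures was hybridised to 1 Affymetrix array each. The deposited intensity values are MAS5 signals made with GCOS 1.4.0, per the submitters' processing notes, and the authors' scaling gives every array the same trimmed mean. Depth is not defined for an array, and 1 array per group limits the precision. Arrays were grouped by their labels.

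Of 22690 probe sets, 20393 have 1 gene symbol in the platform annotation, 691 have several and 1606 have none. Each of 12393 genes was represented by its brightest singly annotated probe set. The floor of 20.1 is the 50th percentile of an array's signals, taken as the median of the 6 arrays. A log2 ratio was taken where at least 1 of 2 arrays was above the floor, with the lower signal raised to it. The line difference was fitted with limma 3.58.1 in R 4.3.3 on log2 signals of the 4 fusion arrays, with treatment and line as terms. Genes needed at least 2 of these arrays over the floor, and signals below it entered at the floor. The fit left 1 residual degree of freedom, beside 4.59 prior degrees of freedom pooled over genes. The fit was tested on simulated data. Alternatives were the 40th and 60th percentile as floor, a pseudocount of 20, scaling to 18 hybridization control probe sets, quantile normalization, the mean of all probe sets and other filters and variance models.

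The comparison and the gene lists were chosen with earlier results of these data known, and the interferon genes were split after their values were seen. Genes to name were listed by rule, and the text names only part of them. The rules took the 20 highest and 20 lowest ratios among genes at 5 times the floor. They also took up to 10 leading genes a direction that were shared by both pairs, or were nearly level (under 1.25-fold) or opposite with imatinib. Further rules took list members past 2-fold (up to 8, or else up to 3 of the brightest) and fusion partner homologs. The last took the 5 lowest limma p-values a direction among genes past 2-fold. Genes on this rule list that the text leaves out include Rapsn, P2rx4, Ogt, Nagk, Idh1, Arf2, Pcx, Fbxw4, Dusp16, Hmox1, P2ry14, Serpinf1, Tnfsf14, Rnpc3, Kifc3 and Ankrd10. Other genes named, such as Anxa1, Plin3, Pink1, Rbmx, Fam162a, Lgmn, Ctss, Cish, Mcpt4, Slc2a3, Pgam1, Hif1a, Usp18 and further list members, were chosen after their values were seen.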

Additional observations from a re-analysis of the deposited data

Results flagged for a closer look

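In 9 genes past 2-fold in the untreated pair, the ETV6-PDGFRB over FIP1L1-PDGFRA log2 ratio had the opposite sign in the imatinib pair by more than 0.195, the SD of the ratios of the IL3 vector pair, with 1 array per line and treatment. In each, the difference between the pairs was not tested. Tcl1b3 was at 1.70 untreated and -0.42 with imatinib, Igtp at 1.23 and -0.27, and Strada, a pseudokinase that activates LKB1, at 1.03 and -0.40. Strada gave 68.5 in untreated ETV6-PDGFRB cells and 33.5 in untreated FIP1L1-PDGFRA cells, and with imatinib 46.1 in ETV6-PDGFRB cells and 61.0 in FIP1L1-PDGFRA cells.

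In the other direction Socs3 was at -1.20 untreated and 0.54 with imatinib, the imatinib ratio being a bound, Prcp at -1.06 and 0.23, Ifit2 at -1.05 and 0.78, and Id2 at -1.04 and 0.40. Nup54, a nuclear pore protein, was at -1.03 and 0.30, and Cfap97 at -1.01 and 0.22. On other probe sets the untreated ratios were -0.02 and -0.08 for Nup54, 0.07 for Cfap97, 0.02 for Prcp and -0.43 for Id2.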

How the results depend on the processing

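No paired analysis was possible because the labels give no replicate numbers, other than the line fit itself, which sets the lines side by side within each treatment, and leaving out an array would end the comparison. With the floor at the 40th percentile (9.49), the untreated pair had 113 genes higher and 84 lower past 2-fold, the imatinib pair 111 and 72, the vector pair 30 and 19, and 32 higher genes were shared. At the 60th percentile (42.6) the counts were 33 and 32, 27 and 24, and 2 and 0, with 12 shared lower genes. With a pseudocount of 20 they were 32 and 27, 26 and 18, and 3 and 0, with 10 shared lower genes. With hybridization control scaling they were 26 and 118 untreated, 23 higher with imatinib and 12 shared higher genes. With the mean of all probe sets the vector pair had 2 lower. Among genes at 5 times the floor, chosen after seeing the data, the untreated pair had 31 and 27.

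The limma line fit called 5 higher and 0 lower with the 40th percentile floor, where 1279 genes had an unadjusted p under 0.05, 5 and 2 with the mean of probe sets, 14 and 28 with control scaling, 45 and 34 with all 6 arrays, 111 and 82 with the 60th percentile floor, 147 and 124 with an intensity trend in the variance, and 165 and 127 with the pseudocount. Of the 45 genes called, 5 to 45 were called again where all were tested, and all kept their direction there. The cause of these shifts was not tested. Quantile normalization left the counts within 1.5 times. No named gene past 2-fold changed sign. With control scaling the balance of higher and lower genes turned, and the medians of 13 of 29 lists, taken with the split interferon groups, changed sign with the median of all genes, against 0 to 4 under the other settings. Under 20.1 a signal gives a bound only.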
